A study of Mus musculus with 12 samples.

Results

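The genes described here encode receptors and intracellular transducers through which cumulus cells read growth factors secreted by the oocyte. They are the rows of the gene table named Bmpr2, Bmpr1a, Bmpr1b, Acvr1, Tgfbr1, Smad2, Smad3, Smad4, Smad5 and Smad7, chosen by name, and make up 10 of its 23997 rows. All 10 passed the filter for testing, as did 11196 rows in all: 1 FPKM had to be reached by 3 or more libraries. FPKM is a read-pair level scaled to transcript length and to the reads of the library, so levels of different genes can be set side by side. The members vary several-fold between libraries, and none changed with genotype or age at an adjusted p under 0.05. The type I receptor transcripts Tgfbr1 and Bmpr1b lay lower in each 3-month KO library than in any 3-month WT library. Bmpr2 lay higher in each 6-month library than in any 3-month library of the same genotype. Over all genes tested, groups did not overlap for 10.2% in the genotype comparison at 3 months. The shares were 15.7% for age in WT and 12.8% for age in KO. The members are too few to set apart from those shares.

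Cumulus cells were taken from C57BL/6J female mice, wild type (WT) or knocked out for ClpP (ClpP-/-, KO), the proteolytic subunit of a mitochondrial matrix protease. The mice were 3 or 6 months old, giving the groups 3-month WT, 3-month KO, 6-month WT and 6-month KO with 3 libraries each. Pregnant mare serum gonadotropin (5 IU), which drives follicle growth, was given to all mice, WT included, and cells were collected 44 h later by one label and 48 h later by another. Each library pooled 100 cells of 1 mouse, so the spread within a group is the spread between mice together with that of amplifying so few cells. The labels give no further detail of the knockout allele, such as the cells in which it acts, and describe no ovulatory hormone.

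The oocyte secretes GDF9 and BMP15, members of the TGF-beta family. A dimer of ligands gathers type II receptors, chiefly BMPR2 for these factors, with type I receptors, and the type II kinase switches on the type I kinase. The type I receptor then decides which SMAD proteins are phosphorylated. TGFBR1 (ALK5) is the GDF9 route to SMAD2 and SMAD3, while BMPR1A (ALK3), BMPR1B (ALK6) and ACVR1 (ALK2) serve BMP ligands such as BMP15 and BMP6 and act on SMAD1, SMAD5 and SMAD9. Both classes pair with SMAD4 to reach the nucleus, and SMAD7 blocks the type I receptors. In cumulus cells these routes are known for keeping the cells proliferating and metabolically coupled to the oocyte, for holding back luteal differentiation and for enabling expansion of the cumulus matrix.

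Clpp, which checks the labels, ranged from 88.2 to 146 FPKM among the WT libraries and from 0.769 to 6.63 among the KO libraries. The 12 granulosa and cumulus markers summed to 2991 to 8030 FPKM, with Inha, the inhibin alpha subunit, at 2419 to 6334. Library 3 of the 3-month KO group and of the 6-month KO group reached summed theca and stroma markers (12 genes) of 7213 and 9593 FPKM, while the sum was 3.03 to 823 elsewhere. Their range was 48.0 to 709 in 3-month WT, 3.03 to 7213 in 3-month KO, 32.9 to 823 in 6-month WT and 8.57 to 9593 in 6-month KO, and the theca enzyme Cyp17a1 was above 0 throughout, at 0.197 FPKM or more. Most of the sum in the KO libraries numbered 3 was 1 gene, Cyp11a1, at 5942 and 7989 FPKM. Cyp17a1 stood there at 932 and 1062 FPKM, Acta2 at 116 and 170, and Dcn at 99.0 and 154. Others of the list stayed below 1 FPKM there: Pdgfra (0.918 and 0.611), Ptch1 (0.046 and 0.411) and Gli1 (0 and 0.552). Blood and leukocyte markers, 10 of 11 in the table, summed to 1528 FPKM in 6-month WT library 3 and to 768 and 1000 in library 3 of the 3-month and 6-month KO groups. The pan-leukocyte gene Ptprc reached at most 2.67 FPKM there, but other genes of the list were high and differed between the 3. The haemoglobin gene Hbb-b1 stood at 745, 379 and 14.01 FPKM, taking the libraries in the order just given. Lyz2, also on the list, stood at 151, 64.2 and 397 FPKM in that order. These 3 libraries are called high in other-cell markers below, a set taken from earlier work on these data. Library 3 of 3-month WT is not among them, although its blood and leukocyte sum was 757 FPKM and its theca and stroma sum 709. Hsd17b1, a steroid enzyme of granulosa cells, was down to 170 and 196 FPKM in the KO libraries numbered 3, against 623 to 1256 elsewhere. The granulosa and cumulus sum was nevertheless higher in the 6-month one (3903 FPKM) than in 6-month WT library 3 (3459). Genes of that list were mixed in the KO libraries numbered 3. Fshr was lowest there too, at 36.3 and 30.7 FPKM. Nr5a1 (24.5 and 19.9) and Kitl (17.96 and 24.1) lay above their medians over the 12 libraries, 18.8 and 7.68. The summed oocyte markers came to 74.2 and 296 FPKM in those 2 libraries at 3 and 6 months, and to 18.9 or less elsewhere. In such bulk samples fewer cells of a type and less RNA per cell cannot be told apart. Relative sequencing depth, read from the spacing of low FPKM values, was 0.64 to 1.0 of the deepest library, and 9335 to 10861 genes per library reached 1 FPKM.

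Promoter sequence was read for the type I receptor genes Tgfbr1 and Bmpr1b, because these were the members whose KO and WT libraries did not overlap at 3 months. RefSeq promoter windows on GRCm38.p6 were matched for 7 of the 10 members, with 12 starts in all, and the 250 bases before each start were used. Both windows printed here touch no annotated exon. The Tgfbr1 window is chr4:47352972-47353221 on the plus strand, directly before the annotated gene (chromosome 4, 47353222 to 47414931, plus strand). Its capitals mark the GC box GGGCGG, found 2 times. The Bmpr1b window is chr3:141982265-141982514 on the minus strand, inside the longer annotated gene (chromosome 3, 141837136 to 142169425, minus strand) and before 1 of its 3 RefSeq starts. Its capitals mark the core Smad motif CAGAC, found once.
Tgfbr1: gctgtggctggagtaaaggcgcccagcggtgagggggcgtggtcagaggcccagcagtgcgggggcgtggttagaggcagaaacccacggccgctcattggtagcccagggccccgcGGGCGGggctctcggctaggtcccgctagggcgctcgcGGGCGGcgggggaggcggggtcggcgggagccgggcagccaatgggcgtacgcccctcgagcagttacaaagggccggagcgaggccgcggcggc
Bmpr1b: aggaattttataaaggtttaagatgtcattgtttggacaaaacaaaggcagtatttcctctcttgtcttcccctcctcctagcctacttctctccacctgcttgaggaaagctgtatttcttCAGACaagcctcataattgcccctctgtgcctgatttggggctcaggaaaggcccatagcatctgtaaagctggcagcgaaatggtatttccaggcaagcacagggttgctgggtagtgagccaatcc
The Tgfbr1 window is 74.8% G and C and holds 2 CCAAT matches, 1 of the GC-rich Smad motif GGCGCC and no CAGAC. The Bmpr1b window is 46.8% G and C, with 2 matches of TATAAA, 1 of CCAAT and no GC box. The 2 TATAAA matches overlap on opposite strands in a single stretch near the end of the window farthest from the start. Over all 32851 RefSeq windows the median G and C content was 52.4% (quartiles 45.2% and 61.2%). On either strand GGGCGG occurs in 32.7% of them, CAGAC in 42.2%, GGCGCC in 9.59%, CCAAT in 33.8% and TATAAA in 12.4%, so most of these matches are common by themselves. Tgfbr1 has a second RefSeq start, whose window (chr4:47385966-47386215) is 52.8% G and C with 1 CAGAC and no GC box. The second Bmpr1b window (chr3:141931589-141931838) has the same 3 values, so the contrast between the printed windows holds for the starts shown only. A gene-level FPKM does not say which start was used, and a match is only a match of letters.

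By median FPKM over the 12 libraries the order was Smad4 (23.4), Bmpr1b (18.4), Bmpr2 (17.6), Bmpr1a (10.2), Tgfbr1 (7.96), Smad2 (7.14), Smad5 (4.76), Acvr1 (3.42), Smad3 (2.16) and Smad7 (1.47). Smad2 was above Smad5, and Acvr1 above Smad3, in all 12 libraries. Bmpr2 was above Bmpr1a in 10, and Bmpr1a above Tgfbr1 in 9. Neighbouring levels were not separated elsewhere: Smad4 exceeded Bmpr1b in 8 libraries, Tgfbr1 exceeded Smad2 in 8, Smad5 exceeded Acvr1 in 7, and Bmpr1b exceeded Bmpr2, and Smad3 exceeded Smad7, in only 6. The most abundant messages were thus those of the shared SMAD and of the BMP15-type receptor pair. Smad7, the inhibitory SMAD, and Smad3 were the scarcest and were not separated from each other.

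**Figure D1:**
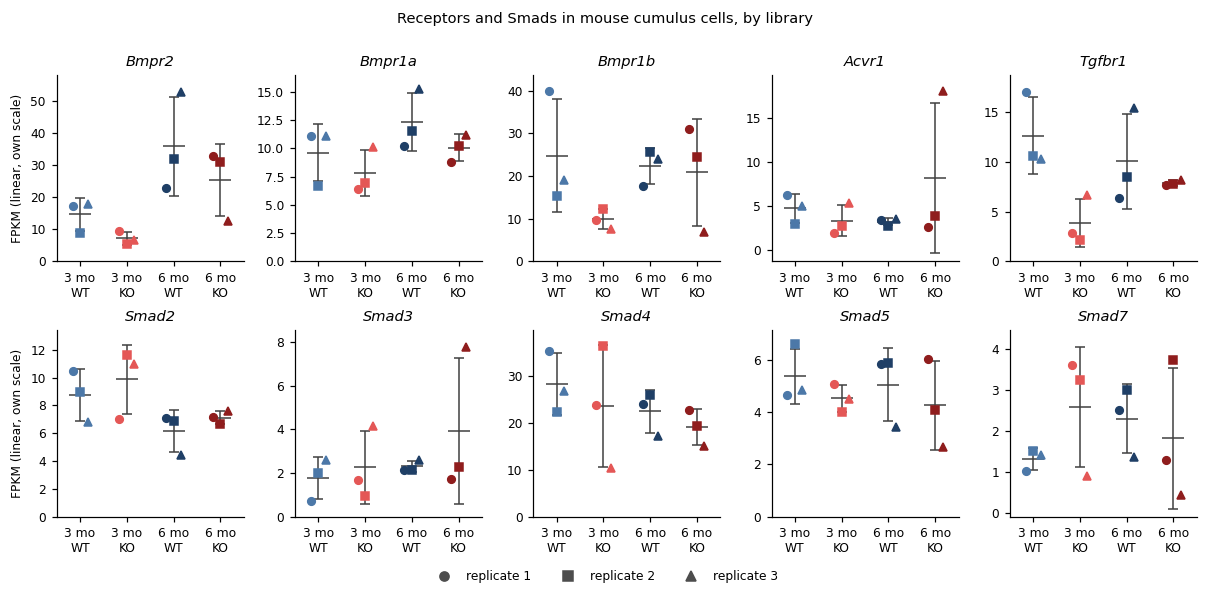
FPKM (vertical axis, linear, own scale per panel) of the 10 genes in each library by group (horizontal axis); symbols give the replicate number, horizontal bars the group mean and whiskers the SD, n = 3. Tgfbr1 lies at 6.61 or below in 3-month KO and at 10.3 or above in 3-month WT, Bmpr2 averages 14.6 and 35.9 in WT at 3 and 6 months, and 1 library, 6-month KO 3, carries the high Acvr1 (18.03) and Smad3 (7.77) values.

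Bmpr2 (chromosome 1, 59763400 to 59879014, plus strand) encodes the type II receptor shared by BMP15 and GDF9. It stood at 17.2, 8.72 and 17.998 FPKM in 3-month WT, given here and below in the order of replicates 1, 2 and 3, and at 9.46, 5.43 and 6.56 in 3-month KO. The 6-month WT libraries stood at 22.9, 31.9 and 53.0 FPKM, those of 6-month KO at 32.7, 30.8 and 12.5. Each 6-month library lay above every 3-month library of its own genotype. The WT mean was 14.6 ± 5.14 FPKM at 3 months and 35.9 ± 15.4 at 6 months (SD, n = 3), a ratio of 2.45, and the KO mean was 7.15 ± 2.08 and 25.4 ± 11.1, a ratio of 3.55. On the log2(FPKM + 1) scale, which understates differences of low genes, the 6 minus 3 month difference was 1.22 in WT (SE 0.44, limma adjusted p = 0.664) and 1.61 in KO (SE 0.44, limma adjusted p = 0.745). Neither passed, and they share no libraries. The interaction, KO minus WT of these age differences, was 0.39 (95% interval -0.96 to 1.75). With the 3 libraries high in other-cell markers left out, the age differences were 0.90 in WT and 2.00 in KO.

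Between genotypes Bmpr2 overlapped at both ages. The KO minus WT log2 difference was -0.91 at 3 months (SE 0.44, limma adjusted p = 0.747), where only WT library 2 came down to the KO range. At 6 months it was -0.52 (SE 0.44, limma adjusted p = 0.9998), and KO library 3, at 12.5 FPKM, was the lowest. With the 3 libraries high in other-cell markers left out, the 6-month difference was 0.22, of opposite sign. Averaged over the ages the difference was -0.71 (SE 0.31, limma adjusted p = 0.783), and -0.32 with those 3 libraries left out, which also moved the interaction from 0.39 to 1.09.

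These counts are read against all genes. Of the 11196 genes limma called 0.00893% for KO minus WT at 3 months and 0.0268% at 6 months. It called 0.0179% for the average of the ages, 0.00893% for the interaction, 0.00893% for 6 minus 3 months in WT and 0.0179% for 6 minus 3 months in KO. No member was among them, and the unadjusted p was under 0.05 for 2, 0, 2, 1, 1 and 2 of the 10 members in the same order, against 6.8%, 1.22%, 5.96%, 2%, 7.44% and 6.48% of all genes tested. Groups did not overlap, in either direction, for 10.2% of genes for KO against WT at 3 months, 6.8% at 6 months, 15.7% for 6 against 3 months in WT and 12.8% in KO. Among the 10 members 2, 0, 1 and 2 did not overlap, or 20%, 0%, 10% and 20%, counts too small to set apart from those shares. The median member log2 difference was -0.32 for KO minus WT at 3 months, -0.23 at 6 months, -0.06 for age in WT and 0.43 for age in KO, against medians of all genes between 0.01 and 0.03.

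**Figure D2:**
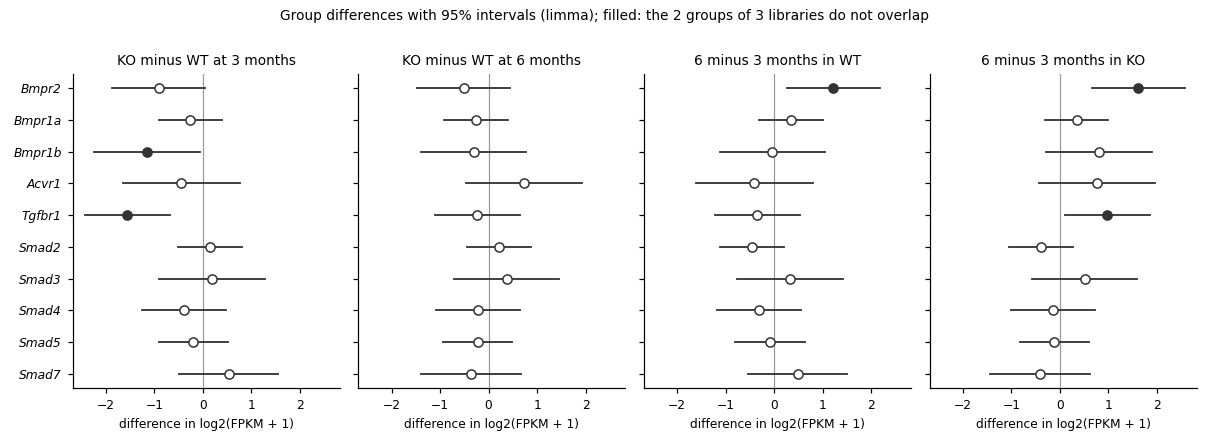
Difference in log2(FPKM + 1) (horizontal axis) of each gene (vertical axis) in 4 comparisons, with 95% intervals from limma; filled points mark comparisons whose 2 groups of 3 libraries do not overlap. Filled points are Tgfbr1 (-1.56) and Bmpr1b (-1.15) for KO minus WT at 3 months, Bmpr2 for age in WT (1.22) and in KO (1.61), and Tgfbr1 for age in KO (0.98).

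Tgfbr1 encodes ALK5, the type I receptor of the GDF9 route. It stood at 17.0, 10.5 and 10.3 FPKM in 3-month WT and at 2.80, 2.16 and 6.61 in 3-month KO. The KO mean of 3.86 ± 2.41 FPKM was 30.6% of the WT mean of 12.6 ± 3.84 (SD, n = 3), and the groups did not overlap. The log2 difference was -1.56 (SE 0.40, 95% interval -2.44 to -0.68), rank 38 of 11196 by p, with a limma adjusted p of 0.628. The difference was -1.94 without KO library 3 and between -1.30 and -1.94 whichever of the 6 libraries was left out.

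At 6 months Tgfbr1 stood at 6.32, 8.46 and 15.4 FPKM in WT and at 7.67, 7.75 and 8.18 in KO. The KO values lay within the WT range, and the log2 difference was -0.24 (SE 0.40, limma adjusted p = 0.9998). The interaction, 1.32 (SE 0.57, 95% interval 0.08 to 2.56), did not pass either (limma adjusted p = 0.9998), and was 2.004 with the 3 libraries high in other-cell markers left out. Each 6-month KO library exceeded each 3-month KO library, with a log2 difference of 0.98 (SE 0.40, limma adjusted p = 0.745). This comparison shares the low 3-month KO libraries with the genotype comparison. Averaged over the ages the KO minus WT difference was -0.90 (SE 0.28, limma adjusted p = 0.783).

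Bmpr1b encodes ALK6, the type I receptor that partners BMPR2 for BMP15. It stood at 40.0, 15.3 and 19.1 FPKM in 3-month WT and at 9.62, 12.3 and 7.66 in 3-month KO. The highest KO library was below the lowest WT library, and the KO mean was 39.7% of the WT mean (9.85 ± 2.31 and 24.8 ± 13.3 FPKM, SD, n = 3). The log2 difference was -1.15 (SE 0.50, limma adjusted p = 0.730). It was -0.76 without WT library 1, the highest of the 12, a change of more than 1.5 times.

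At 6 months Bmpr1b stood at 17.7, 25.6 and 24.0 FPKM in WT and at 31.1, 24.6 and 6.94 in KO. The genotypes overlapped, with a log2 difference of -0.31 (SE 0.50, limma adjusted p = 0.9998), and the sign followed 1 library: without KO library 3 the difference was 0.31. That library and 3-month KO library 3 held the lowest Bmpr1b values of the 12 and the highest theca and stroma marker sums, 9593 and 7213 FPKM. The part of those markers in the Bmpr1b values was not tested. At 3 months the difference was -1.003 without KO library 3. The averaged difference was -0.73 (SE 0.35, limma adjusted p = 0.783), and -0.32 with the 3 libraries high in other-cell markers left out. The interaction was 0.84 (SE 0.71, limma adjusted p = 0.9998), 0.45 without 3-month WT library 1 and 1.46 without 6-month KO library 3.

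Bmpr1a (chromosome 14, 34410734 to 34503341, minus strand) encodes ALK3, the broadly expressed BMP type I receptor. It stood at 11.1, 6.68 and 11.1 FPKM in 3-month WT, 6.43, 6.92 and 10.1 in 3-month KO, 10.3, 11.6 and 15.3 in 6-month WT and 8.80, 10.2 and 11.2 in 6-month KO. It was the steadiest of the receptors, with a coefficient of variation of 25.1% over the 12 libraries, and all 4 comparisons overlapped. The KO minus WT log2 difference was -0.26 at either age (SE 0.30, 95% interval -0.91 to 0.39), which leaves room for differences of the size seen in Bmpr2. An antisense gene, Gm17110, shares 290 exon bases with Bmpr1a on the opposite strand. No source used here says that reads were counted by strand, so reads of the pair cannot be told apart in that stretch.

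Acvr1 (chromosome 2, 58388644 to 58567157, minus strand) encodes ALK2, a type I receptor that BMP6 can use. It stood at 6.26, 2.96 and 4.98 FPKM in 3-month WT, 1.93, 2.70 and 5.28 in 3-month KO, and 3.36, 2.75 and 3.47 in 6-month WT. In 6-month KO it stood at 2.58, 3.90 and 18.03. KO library 3 alone stood above the range of the other 11 libraries, 1.93 to 6.26. The 6-month KO minus WT log2 difference was 0.73 (SE 0.55, limma adjusted p = 0.9998) and came to 0.002 without that library. Its theca and stroma markers summed to 9593 FPKM and its oocyte markers, split by gene as given above, to 296. The part of either list in the Acvr1 value was not tested. At 3 months the difference was -0.44 (SE 0.55, limma adjusted p = 0.882).

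The make-up of the type I receptor pool was taken as each gene's share of the summed FPKM of Bmpr1a, Bmpr1b, Acvr1 and Tgfbr1. Bmpr1b held 41.3% to 62.0% in 10 libraries, but 25.8% and 15.7% in library 3 of the 3-month and 6-month KO groups. Acvr1 held 5.15% to 17.8%, apart from the 40.7% of 6-month KO library 3. The ratio of Acvr1 to Bmpr1b was 2.60 and 0.690 in 6-month and 3-month KO library 3, and 0.083 to 0.260 elsewhere. The libraries with the most theca and stroma marker signal therefore had a different receptor mixture, and that signal's part in it was not tested. The Tgfbr1 share was 22.6% to 29.7% in 3-month WT and 8.97% to 22.3% in 3-month KO. The summed pool was 74.4 FPKM at most and 35.5 at least in 3-month WT, and 20.8 to 29.7 in 3-month KO, without overlap. The pool contains Bmpr1b and Tgfbr1, which did not overlap in the same comparison, so this is no separate result.

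The ratio of Bmpr2 to that pool was 0.231, 0.246 and 0.396 in 3-month WT and 0.455, 0.226 and 0.221 in 3-month KO. At 6 months it was 0.609, 0.660 and 0.910 in WT and 0.653, 0.664 and 0.283 in KO. All 6-month libraries except KO library 3 had more Bmpr2 per type I receptor message than any 3-month library. Bmpr2 itself did not overlap between the ages in either genotype, so this is no separate result. At 3 months, where both Bmpr2 and the pool lay lower in KO, the ratio overlapped between genotypes.

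**Figure D3:**
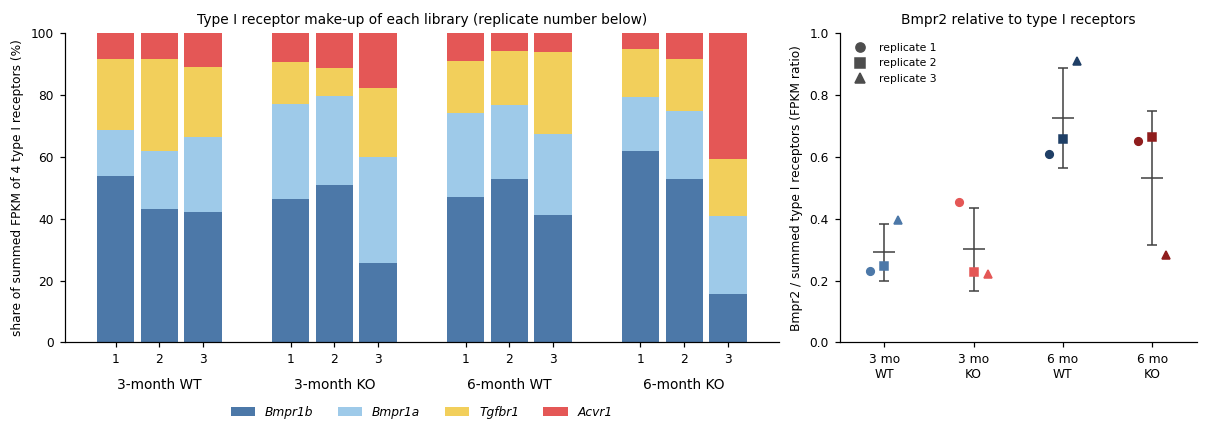
Left, share (vertical axis, %) of each type I receptor in their summed FPKM, one bar per library, with the replicate number and group on the horizontal axis; right, ratio of Bmpr2 to that sum (vertical axis) by group, with the mean (bar) and SD (whiskers), n = 3. Acvr1 takes 40.7% in 6-month KO library 3, and the ratio lies at 0.609 to 0.910 in 6-month WT and at 0.231 to 0.396 in 3-month WT.

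Smad2 and Smad3 encode the receptor SMADs of the GDF9 route, and Smad2 the more abundant message. Smad2 (chromosome 18, 76241580 to 76310963, plus strand) stood at 10.5, 8.97 and 6.79 FPKM in 3-month WT, 7.02, 11.6 and 11.003 in 3-month KO, 7.12, 6.89 and 4.40 in 6-month WT and 7.15, 6.63 and 7.56 in 6-month KO. Its groups overlapped throughout. The largest of its differences by size was that of age in WT, -0.46 on the log2 scale (SE 0.30, limma adjusted p = 0.749), and KO minus WT was 0.15 at 3 months and 0.21 at 6 months (SE 0.30 each).

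Smad3 (chromosome 9, 63646767 to 63757994, minus strand) stood at 0.712, 2.01 and 2.58 FPKM in 3-month WT, 1.69, 0.957 and 4.14 in 3-month KO and 2.16, 2.16 and 2.60 in 6-month WT. In 6-month KO it stood at 1.71, 2.27 and 7.77. Library 3 was the highest of its group in all 4 groups, most so in KO. The KO minus WT log2 difference was 0.18 at 3 months (SE 0.50, limma adjusted p = 0.953) and 0.37 at 6 months (SE 0.50, limma adjusted p = 0.9998). Without KO library 3 of the same age these were -0.20 and -0.15. The ratio of Smad2 to Smad3 was 0.974 in 6-month KO library 3 and 1.69 to 14.8 in the other 11. Marker sums of theca and stroma were highest in the same 2 KO libraries, and their part in the Smad3 values was not tested.

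Smad5 (chromosome 13, 56703010 to 56742377, plus strand) encodes a receptor SMAD of the BMP route. It stood at 4.66, 6.60 and 4.87 FPKM in 3-month WT, 5.07, 4.01 and 4.51 in 3-month KO, 5.83, 5.89 and 3.45 in 6-month WT and 6.04, 4.08 and 2.66 in 6-month KO. Its 12 values stayed within 2.66 to 6.60, and its KO minus WT log2 differences, -0.20 and -0.23 (SE 0.33 each), were smaller than their standard errors. A small RNA gene, Gm27301, shares 100 exon bases with Smad5. Smad1, which acts in the same way, stood at 2.48 to 7.98 FPKM, and Smad9 at 0.742 or less, below the testing filter. Summed, Smad1, Smad5 and Smad9 came to 5.31 to 12.8 FPKM per library, and Smad2 and Smad3 to 7.003 to 15.3. In 6-month KO library 3 the sums were 5.31 and 15.3, the lowest and the highest of the 12.

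Smad4 (chromosome 18, 73639009 to 73703780, minus strand) encodes the common SMAD that both branches need. It stood at 35.5, 22.5 and 26.9 FPKM in 3-month WT, 23.8, 36.6 and 10.5 in 3-month KO, 24.2, 26.1 and 17.3 in 6-month WT and 22.9, 19.5 and 15.2 in 6-month KO. The genotypes overlapped at both ages, and the KO minus WT log2 difference was -0.39 at 3 months (SE 0.40, limma adjusted p = 0.860) and -0.22 at 6 months (SE 0.40, limma adjusted p = 0.9998). Without 3-month KO library 3 the first was 0.08. Smad4 equalled 1.00 to 1.62 times the sum of Smad1, Smad2, Smad3, Smad5 and Smad9 in FPKM in 10 libraries. In KO library 3 it equalled 0.376 times that sum at 3 months and 0.735 times at 6 months.

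Smad7 (chromosome 18, 75367529 to 75395935, plus strand) encodes the inhibitory SMAD, itself a target of the pathway. It stood at 1.02, 1.53 and 1.42 FPKM in 3-month WT and at 3.61, 3.24 and 0.914 in 3-month KO. KO libraries 1 and 2 were above the WT range and KO library 3 below it. At 6 months it stood at 2.53, 3.01 and 1.37 FPKM in WT and at 1.29, 3.73 and 0.450 in KO, again with library 3 lowest in both groups. The KO minus WT log2 difference was 0.53 at 3 months (SE 0.47, limma adjusted p = 0.836) and -0.37 at 6 months (SE 0.47, limma adjusted p = 0.9998). With the 3 libraries high in other-cell markers left out, the first was 0.93 (limma adjusted p = 0.322). Levels this near 1 FPKM rest on few reads, and their counting error is not known.

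Other genes of the pathway were taken from lists of ligands, receptors, SMAD partners, antagonists and targets. None of their tested members passed in any of the 6 comparisons, in either direction. Of 14 ligand genes 6 were tested. Gdf9, made by the oocyte, stood at 0.046 to 10.2 FPKM, highest in 3-month KO library 3, and Bmp15 at 2.85 or less, below the filter. Bmp6 stood at 0.058 to 6.66 FPKM and was lowest in the 2 KO libraries numbered 3. The activin subunit gene Inhba was far more abundant, at 11.04 to 1122 FPKM, Inhbb stood at 2.77 to 219, and Amh at 1.60 to 50.8.

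Of 12 other receptor genes 7 were tested. Amhr2, the type II receptor of anti-Mullerian hormone, stood at 15.3 to 149 FPKM, above Bmpr2 in 9 of 12 libraries. It stood at 28.5, 65.95 and 35.98 FPKM in 3-month WT and 63.4, 149 and 81.96 in 3-month KO, with a log2 difference of 1.15 (SE 0.50, limma adjusted p = 0.730), opposite in sign to that of Bmpr2. The other type II receptor genes were low, Acvr2a at 0.036 to 3.19 FPKM, Acvr2b at 0.396 to 4.06 and Tgfbr2 at 0 to 2.81, and the activin type I receptor gene Acvr1b reached only 0.318. Tgfbr3, the co-receptor betaglycan, stood at 0.240 to 6.32 FPKM. Bambi, a decoy receptor, stood at 3.70 to 9.89 FPKM except in 3-month KO library 1, where it reached 75.99. By median FPKM Bmpr2 stood above Acvr2a, Acvr2b and Tgfbr2 among the type II receptors, and Tgfbr1 above Acvr1b but below Bmpr1b and Bmpr1a among the type I receptors.

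Smad6, the inhibitory SMAD of the BMP branch, followed a similar layout to Smad7. It stood at 0.575, 0.898 and 0.629 FPKM in 3-month WT and 2.01, 4.06 and 0.138 in 3-month KO, and at 1.08, 1.55 and 0.561 in 6-month WT and 1.30, 0.857 and 0.053 in 6-month KO. Of 19 other SMAD and partner genes 15 were tested, 6 of them above 0 for KO minus WT at 3 months and 7 at 6 months. Of 13 antagonist genes 10 were tested, 8 below 0 at 3 months and 7 at 6 months. Over all genes tested, 51.2% lay above 0 at 3 months and 51.5% at 6 months. Fst, the activin-binding follistatin, was lowest in the KO libraries numbered 3, at 31.5 FPKM (3 months) and 48.3 (6 months), and stood at 186 to 649 in the other 10. Grem1, a BMP antagonist that GDF9 induces in cumulus cells, stood at 13.3, 2.21 and 32.5 FPKM in 3-month WT and 2.23, 0.225 and 0.762 in 3-month KO (log2 difference -2.59, SE 0.93, limma adjusted p = 0.664). In 6-month WT it stood at 52.0, 26.7 and 85.5 FPKM, and in 6-month KO at 10.9, 73.9 and 6.19. Like Bmpr2, Grem1 in KO did not overlap between the ages.

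Targets of the BMP branch, 8 of 10 tested, lay above 0 for 7 genes in KO minus WT at 3 months (median log2 difference 0.76) and for none at 6 months (median -0.26), against medians of 0.01 over all genes. Id1 and Id3, inhibitors of DNA binding, had the largest differences of the list at 3 months, while their relative Id4 had 0.14. Id1 stood at 4.35, 8.94 and 92.9 FPKM in 3-month WT and at 347, 259 and 77.4 in 3-month KO. In 6-month WT it stood at 117, 57.8 and 42.5, and in 6-month KO at 9.44, 88.3 and 50.3. The 3-month groups overlapped through library 3 of each, and the log2 difference was 3.49 (SE 1.03, limma adjusted p = 0.664). The interaction for Id1 was -4.38 (SE 1.46, limma adjusted p = 0.9998). Id3 stood at 177, 162 and 1717 FPKM in 3-month WT and 1826, 1333 and 514 in 3-month KO. Id2 stood at 16.4 to 253 FPKM over the 12 libraries. At 3 months the 7 targets above 0, but not Hey1 (-0.31), thus had signs opposite to those of the receptors Bmpr2 and Bmpr1b. Of all genes tested 51.2% lay above 0 in that comparison. Smad7 is on the target list and is also a member, so the sets are not separate. Neither set passed, and at 6 months the targets and both receptors lay below 0.

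Genes known to respond to GDF9 or to mark the cumulus, 13 of 15 tested, lay below 0 for 9 at 3 months (median -0.45) and for 11 at 6 months (median -0.37). Has2, the hyaluronan synthase of the cumulus matrix, was listed at 0 in 2 of the 3-month KO libraries and reached 0.016 FPKM in the third, against 23.1, 2.06 and 2.08 in 3-month WT. Among 6-month libraries Has2 stood at 0.486, 0.312 and 0.825 FPKM in WT and overlapped in KO, at 1.23, 0.556 and 0 (log2 difference -0.01). Tnfaip6, which cross-links that matrix, stood at 45.9, 44.9 and 8.36 FPKM in 3-month WT and at 1.41, 0 and 1.66 in 3-month KO (log2 difference -3.87, SE 0.68, limma adjusted p = 0.371). At 6 months it stood at 2.91, 1.91 and 7.24 FPKM in WT and at 1.78, 0.420 and 0 in KO. These groups did not overlap either, as for 6.8% of all genes (log2 difference -1.52, SE 0.68, limma adjusted p = 0.9998). Ptgs2, a prostaglandin synthase, stood at 37.6, 9.06 and 0.085 FPKM in 3-month WT and at 0.580 or less in 3-month KO. Ptx3 was below the filter, at 13.7 FPKM in 3-month WT library 1 and 0.744 or less in every other library. That WT library also held the highest Has2, Ptgs2 and Tnfaip6 values of all libraries. The natriuretic peptide receptor gene Npr2, which helps hold the oocyte in meiotic arrest, was lowest in KO library 3 of each age, at 7.70 FPKM (3 months) and 10.6 (6 months), against 21.2 to 46.99 in the other 10. The amino acid transporter gene Slc38a3 stood at 0.033 to 55.7 FPKM, with no order by group.

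**Figure D4:**
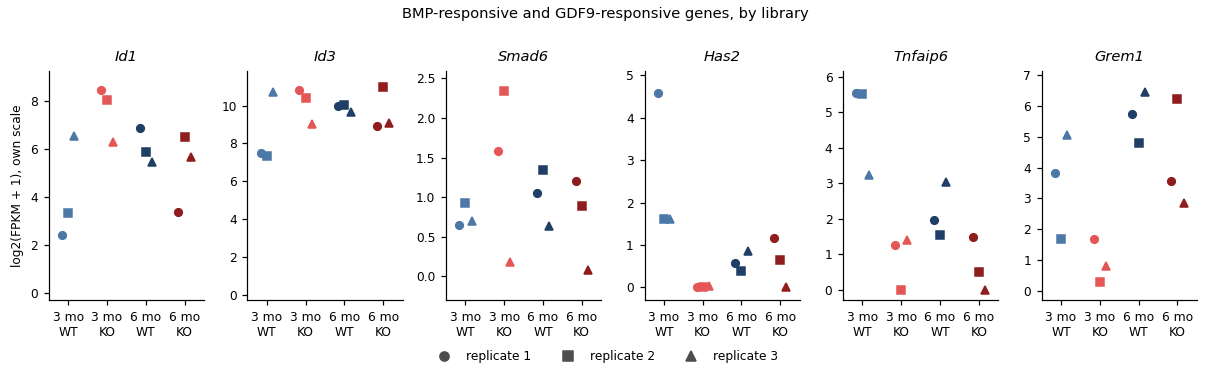
Level as log2(FPKM + 1) (vertical axis, own scale per panel) of 3 BMP-responsive genes (Id1, Id3, Smad6) and 3 GDF9-responsive genes (Has2, Tnfaip6, Grem1) in each library by group (horizontal axis); symbols give the replicate number. Replicates 1 and 2 of 3-month KO have Id1 at 347 and 259 FPKM, those of 3-month WT at 4.35 and 8.94, while Has2 and Tnfaip6 in 3-month KO lie below all 3-month WT libraries.

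Patterns over the 12 libraries were compared by Pearson r of log2(FPKM + 1) with each of the other 11195 tested genes, given as a description of likeness with no test, since the largest of so many values is high by selection. The 2 most alike were Taf15 (0.96) and Suco (0.95) for Bmpr2, Nlk (0.95) and Crim1 (0.94) for Bmpr1a, Ing5 (0.95) and Cblb (0.95) for Bmpr1b, and Mpp5 (0.92) and Daam1 (0.92) for Tgfbr1. They were Gpr137b-ps (0.94) and Hcst (0.93) for Acvr1, of which the leukocyte adaptor gene Hcst ranged from 0 to 17.3 FPKM. For the SMAD genes they were Hspa9 (0.93) and Arhgap1 (0.92) for Smad2, Tmem223 (0.95) and Higd2a (0.94) for Smad3, Smarce1 (0.93) and Tmem183a (0.92) for Smad4, Irs2 (0.92) and Kazn (0.89) for Smad5, and Dgat2 (0.93) and Arhgef39 (0.92) for Smad7. No member was among the 2 most alike of another. The members did not vary as one block: of their 45 pairs 22 had an r above 0, with a median of -0.005.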

How the data were processed

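The members and the gene lists were chosen with earlier results of these data known. Total RNA was measured in 12 libraries (4 groups of 3) by Smart-Seq2 and Nextera XT with paired-end reads, per the labels' protocols. Per the submitters' processing notes the authors used cutadapt, FastQC, Cufflinks 1.2.1, Bowtie2 2.1.0, TopHat2 2.0.10 and SAMtools 0.1.18 on GRCm38/mm10, and the deposited table holds FPKM values. Their gene annotation is not stated (not given in the sources used here).

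Values were tested as log2(FPKM + 1), a pseudocount of 1, in limma 3.58.1 (R 4.3.3, eBayes with trend, 4 group means, no covariate), on rows that reached 1 FPKM in 3 or more libraries. P-values are 2-sided and adjusted by Benjamini and Hochberg over 11196 rows, with a threshold of 0.05. The code was tested on simulated data. Named genes were the 10 members, a list of ligands, receptors, SMADs, antagonists and targets, the genes of each list with the smallest p and the 2 most alike genes per member, with clone-named genes passed over. Coordinates are from GENCODE M21 on GRCm38 and promoters from RefSeq. Python 3.11.15, numpy 2.4.6, pandas 2.3.3 and matplotlib 3.10.9 were used.

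Replicate numbers are in the labels with no word of a shared litter or day. Same-numbered libraries deviated from their group means with correlations of 0.16, 0.37 and 0.47 (genotype at 6 months) and 0.11, 0.39 and 0.65 (age in KO), so the numbers may pair the libraries in these 2 comparisons, on the data alone. However, 6-month KO library 1 was matched best by number 2 in both, at 0.475 and 0.514. The highest same-number values were those of library 3, the libraries high in other-cell markers, whose part in them was not tested. Pairing is therefore uncertain. All values printed come from the fit without a replicate block. The block was an alternative only. Same-number correlations were lower for genotype at 3 months (0.09, -0.02 and 0.21) and age in WT (0.03, 0.03 and 0.28), and were not read as pairing. The alternatives were a pseudocount of 0.1, no filter, a filter at 5 FPKM, upper quartile scaling, the replicate block, the libraries of the comparison alone, each library left out and the 3 libraries high in other-cell markers left out.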

Additional observations from a re-analysis of the deposited data

How the results depend on the processing

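No member was called in any of the 620 alternative fits of 46 member differences. Of these 592 kept their direction and 28 did not. The filter at 5 FPKM gave no value for Smad3 and Smad7, which it left out. Upper quartile scaling moved the median of all genes to 0.163 for age in WT and 0.120 for age in KO, and turned age in WT for Bmpr1b (0.125) and Smad5 (0.053), each smaller than that shift. Bmpr2 stood at 1.38 and 1.73 there, above it.

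With the 3 libraries high in other-cell markers left out, the KO minus WT difference turned for Smad3 (-0.203) and Smad4 (0.084) at 3 months and for Bmpr2 (0.225), Bmpr1b (0.363), Tgfbr1 (0.066), Smad2 (-0.022) and Smad3 (-0.085) at 6 months, and the age difference for Smad5 in WT (0.119) and KO (0.118). Leaving out 1 library gave, for KO minus WT at 3 months, Smad2 -0.0058 (without WT 3) to 0.353, Smad3 -0.203 (without KO 3) to 0.494 and Smad4 -0.771 to 0.084 (without KO 3). At 6 months it gave Bmpr1b -0.701 to 0.306, Smad3 -0.148 to 0.699, Smad5 -0.461 to 0.011 and Smad7 -0.824 to 0.029, each turning without KO 3, and Tgfbr1 -0.492 to 0.091 (without WT 3). For age in WT it gave Bmpr1b -0.311 to 0.353 (without 3-month WT 1) and Smad5 -0.197 to 0.119 (without 6-month WT 3). For age in KO it gave Smad3 -0.013 (without 6-month KO 3) to 0.894, Smad4 -0.616 to 0.238 (without 3-month KO 2) and Smad5 -0.353 to 0.118 (without 6-month KO 3).

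Counts of called genes moved too. At 3 months 1 became 0 with a pseudocount of 0.1, without the filter, with the libraries of the comparison alone and with the replicate block, and 0 to 10 with 1 library left out (0 without WT 2, KO 2 or KO 3). Averaged over ages it became 1 without the filter and 1 to 6 with 1 library left out, and for the interaction 0 and 0 to 4. For age in WT it was 2 with the libraries of the comparison alone and 1 to 10 with 1 left out, and for age in KO 4 with those libraries alone. The high counts of 10, 6, 4 and 10 came without 3-month WT library 3. The cause was not tested. The replicate block changed no call of a member. Low levels, as of Smad3 and Smad7, are the least precise, since no counts were used.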
